A study of Mus musculus with 12 samples.

Results

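Histone transcripts were examined in interscapular brown adipose tissue, the fat depot that burns lipid for heat, in a mouse model without Cdk7 in brown fat. The genes were those whose GRCm38 symbol begins with Hist1h to Hist4h, H2af, H3f3 or H1f, that are annotated as protein-coding and that had at least 10 counts in at least 3 of the 12 libraries. Of 82 protein-coding genes with such a symbol among the 53379 genes of the files, 33 met this rule. They comprise 23 of 67 replication-dependent genes of the histone clusters (3 H1, 2 H2A, 5 H2B, 5 H3 and 8 H4 genes) and 10 of 15 genes for replacement variants (2 of H1, 6 of H2A and 2 of H3 type). Of the cluster genes that met the rule, 20 lie on chromosome 13 between 21735064 and 23761230 and 3 on chromosome 3 between 96221119 and 96263311, in GRCm38 coordinates, whereas the 10 variant genes are spread over 8 chromosomes.

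The tissue came from C57BL/6 mice 12 weeks of age, taken at zeitgeber time 9. The groups were wild-type control littermates (WT) and mice with the Cdk7 deletion in brown fat (Cdk7 bKO, here KO), each kept at room temperature (RT) or exposed to cold for 6 h with food present. Each group had 3 libraries, and each library was a pool of RNA from 2 mice (250 ng of each), so that the spread between libraries is one between pools and not between single mice. The driver of the deletion, the sex of the mice and the temperature of the cold are not given in the sources used here, and KO libraries at RT carry the replicate numbers 4 to 6.

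Cdk7 is the kinase of the CDK-activating complex and of the transcription factor TFIIH, and so has roles in cell division and in transcription by RNA polymerase II. In all cells DNA is wrapped around octamers of the core histones H2A, H2B, H3 and H4, and H1 linker histones bind where DNA enters and leaves the octamer. The cluster genes supply most histones when DNA is copied in S phase; their transcripts usually end in a conserved stem-loop, bound by the stem-loop binding protein SLBP, in place of a poly(A) tail. Replacement variants such as H3.3, H2A.Z, macroH2A and H1.0 are made from polyadenylated, mostly spliced transcripts outside S phase as well, and they are the main source of new histone in cells that no longer divide, as mature adipocytes are.

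The sequence of the stem-loop set both classes apart, and it is shown here because it bears on which transcripts a library made from poly(A) RNA would hold. The pattern searched was GG, any 4 bases, TTT, any 5 bases and CC, with the last 6 bases the reverse complement of the first 6, on the sense strand of the annotated protein-coding transcripts. It was found in 17 of the 23 cluster genes (73.9%) and in 1 of the 10 variant genes, H2afx, against 68 of 21901 protein-coding genes (0.31%). A stem-loop beyond the annotated end would be missed, and the annotated transcripts of Hist1h2af and Hist1h4k, without a match, are 399 and 312 nt long. Capitals mark the stem-loop and lower case the flanks, and each sequence is written 5′ to 3′ on the strand of the gene, as DNA.
Hist1h4h: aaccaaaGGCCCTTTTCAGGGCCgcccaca
Hist1h4c: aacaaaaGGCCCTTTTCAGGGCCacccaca
Hist1h4i: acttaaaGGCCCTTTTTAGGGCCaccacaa
Hist1h4j: ccctaaaGGTCCTTTTCAGGACCaccacat
Hist1h1c: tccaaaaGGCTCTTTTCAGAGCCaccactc
Hist1h1d: ctcaaacGGCTCTTTTCAGAGCCacccaca
Hist1h2be: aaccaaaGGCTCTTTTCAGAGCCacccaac
Hist1h3e: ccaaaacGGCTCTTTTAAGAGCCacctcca
H2afx: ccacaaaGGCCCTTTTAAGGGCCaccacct
The 9 sites share the outer G and C pairs and the TTT of the loop, which the pattern required. They differ in the middle of the stem and in the last base of the loop. In the stem, Hist1h4h, Hist1h4c, Hist1h4i and H2afx share the arm GGCCCT, Hist1h4j has GGTCCT and the printed H1, H2B and H3 sites have GGCTCT. The last base of the loop is T in Hist1h4i, A in Hist1h3e and H2afx and C in the others.

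In the annotation, the transcripts of all 17 cluster genes with the stem-loop run on for more than 30 nt after it, from 46 nt in Hist1h4h to 4884 nt in Hist1h1d. Of the 44 cluster genes that did not meet the count minimum, 9 have a transcript that ends within 30 nt of the stem-loop, 18 run on past it and 17 have no such stem-loop in an annotated transcript. The genes that met the minimum have a median exon length of 1138 bp, against 483.5 bp for the 44 others, of which 10 had no count in any library and none had more than 14 counts in one. Whether the libraries were made from polyadenylated RNA is not given in the sources used here. Rmrp and Rpph1, short RNAs without a poly(A) tail, had 0 counts in all 12 libraries, and Rn7sk had 0 to 47. The cluster levels below are therefore levels of the transcript forms that these libraries hold, and the part of the uncounted forms was not tested.

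Read depth was similar across groups, with 27609717 to 36792555 counts assigned to genes per library. A further 26.6 to 30.2% of each file's total were reads with several alignments, which were given to no gene. Several cluster genes are close copies of each other: the share of 50-base stretches of their exons found in no other annotated transcript was 6% in Hist1h2af, 26.6% in Hist1h3e, 28.5% in Hist1h4k and 36.5% in Hist2h3c2, so that their counts are uncertain, against 80.4% in Hist1h4c and 100% in Hist2h2be. Hist1h1e and Hist1h2be overlap each other on the same strand, and Hist1h2ac and H1fx each overlap another annotated gene on their own strand, so their counts are uncertain too. Hist1h2af, H1f0, H2afj, H2afx, H2afy, H2afy2 and H3f3a overlap other genes on the opposite strand only. That makes their counts uncertain only if reads were counted without regard to strand. Cdk7 itself, which checks the labels, was 3.13-fold lower in KO at RT and 3.18-fold lower in the cold (edgeR adjusted p = 3.8e-08 and 2e-08). The brown adipocyte markers summed to 6762 to 21591 CPM and none of the 8 was at 0 in any library, whereas the skeletal muscle markers stood apart at 708 CPM in WT RT replicate 2 and 1026 CPM in KO RT replicate 6, with 1.86 to 267 CPM in the other 10 libraries.

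Levels are given as CPM, counts relative to a common library size, scaled between libraries by the trimmed mean of M values (TMM). Per kilobase of exon and averaged over the 12 libraries, Hist1h2bc (36.5 CPM per kb), Hist1h1c (35.9) and the H3.3 gene H3f3b (35.4) had the highest levels. H1f0, which encodes the linker histone H1.0 of cells that have stopped dividing, followed at 22.7 and Hist1h4h at 19.7 CPM per kb. The order of H1f0 and Hist1h4h differed between the genotypes at each temperature. At RT H1f0 stood at 35.2 CPM per kb in WT and 19.5 in KO, and Hist1h4h at 5.88 and 30.8. In the cold H1f0 stood at 21.9 CPM per kb in WT and 14.2 in KO, and Hist1h4h at 7.46 and 34.4. Hist1h1c, Hist1h2bc and Hist1h4h together made up 77.2 to 85.1% of the summed cluster CPM, depending on the group.

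The summed level of the 23 cluster genes was higher in KO than in WT at both temperatures, while that of the 10 variants overlapped between WT and KO pools under the TMM scaling and not under library totals alone. The cluster sum was 113 ± 8.45 CPM in WT and 160 ± 5.24 in KO at RT, and 102 ± 12.3 and 164 ± 10.5 CPM in the cold (mean ± SD, n = 3 pools each). The variant sum was 299 ± 17.5 and 313 ± 13.2 CPM at RT and 294 ± 10.6 and 309 ± 18.1 CPM in the cold. By library totals alone it was 285 ± 14.4 in WT and 348 ± 9.48 CPM in KO at RT, and 246 ± 7.57 and 349 ± 6.06 CPM in the cold, with every KO pool above every WT pool. In the ratio of the cluster to the variant sum within a pool, the scaling between libraries cancels. It was 0.322, 0.401 and 0.412 in the WT pools at RT, 0.516, 0.538 and 0.478 in the KO pools at RT, 0.361, 0.298 and 0.376 in the WT pools in the cold and 0.545, 0.588 and 0.469 in the KO pools in the cold. Every KO pool lay above every WT pool. Of the 23 cluster genes, 10 met the count minimum only through the KO libraries, which favoured a higher cluster sum and ratio in KO. No test was made on these sums, because the genes were chosen with results of these data known.

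**Figure D1:**
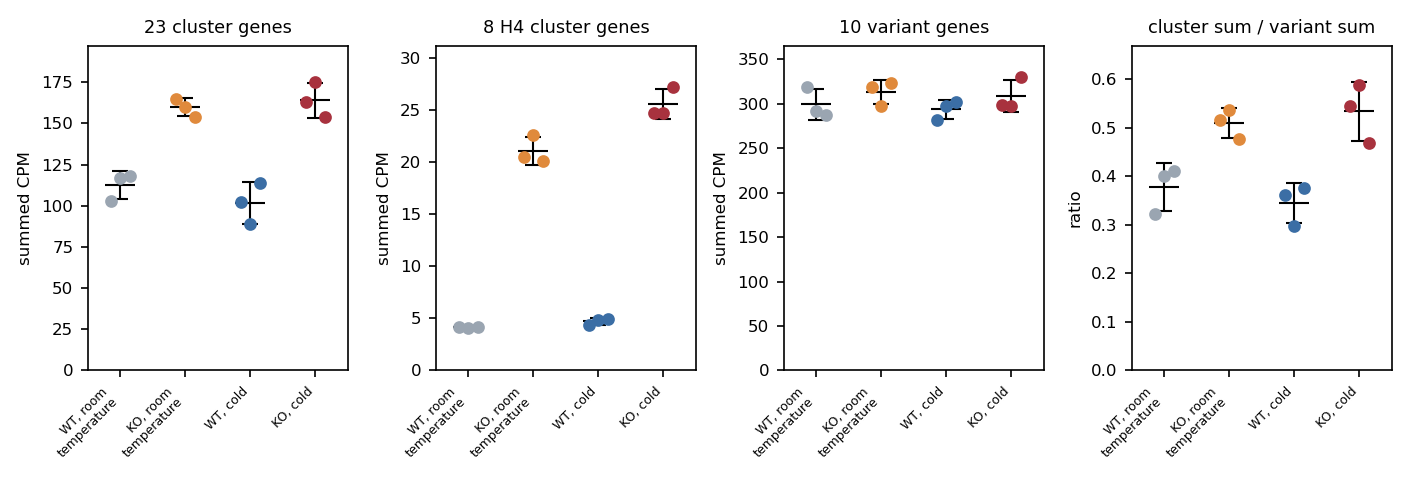
Summed CPM of the 23 cluster genes, of the 8 H4 genes among them and of the 10 replacement variants, and the ratio of the cluster to the variant sum, in each of the 4 groups. Part of the cluster genes, H4 genes among them, met the count minimum only through the KO libraries. Points are pools, horizontal bars group means and whiskers 1 SD (n = 3); the H4 sum is 4.14 and 4.7 CPM in the WT groups and 21.1 and 25.5 CPM in the KO groups, while the variant sums overlap on this TMM scale and do not by library totals alone.

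The H4 genes made up a larger share of the cluster sum in KO. Their sum was 4.14 ± 0.0748 CPM in WT and 21.1 ± 1.35 in KO at RT, and 4.7 ± 0.312 and 25.5 ± 1.46 CPM in the cold. As a share of the cluster sum, H4 was 3.68% and 4.63% in the WT groups and 13.2% and 15.5% in the KO groups. Of the H4 genes, only Hist1h4h, Hist1h4i and Hist2h4 met the count minimum in WT. The other H4 genes met it through the KO libraries, which favoured a higher H4 sum and share in KO. Hist1h4h alone stood at 2.77 CPM in WT and 14.5 in KO at RT, and at 3.51 and 16.2 CPM in the cold. The H1 share went from 47.1% to 41.1% at RT and from 48.6% to 42.3% in the cold, and the H2B share from 47.6% to 42.8% and from 44.8% to 38.8%. The H3 genes summed to 1.57 ± 0.386 CPM in WT and 3.21 ± 0.447 in KO at RT, and to 1.71 ± 0.347 and 3.38 ± 0.155 CPM in the cold.

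At RT the comparison of KO with WT asks what loss of Cdk7 changes in tissue that has not been challenged. Not every cluster gene can be counted here without a reservation. Of the 23, 10 reached 10 counts in no more than 2 WT libraries and met the rule through the KO libraries. This favoured higher levels in KO. Among the other 13 cluster genes, 7 were higher and 1 was lower in KO, with a median log2 fold change of 0.79, where 19.3% of the 15208 genes tested were called higher and 21% lower, with a median of 0.00. Among the 10 variants, which all met the minimum in WT, 4 were higher and 1 was lower, with a median of 0.29. All 3 KO pools lay above all 3 WT pools in 8 of the 13 cluster genes and 5 of the 10 variants, and below them in 1 of each, where the pools were apart in this way in 23.9% and 24.9% of all genes. With the 10 low cluster genes included the count was 16 higher and 1 lower of 23, and all 8 H4 genes were among the 16. Of these 8, Hist1h4a, Hist1h4c, Hist1h4d, Hist1h4j and Hist1h4k met the rule only through the KO libraries, which leaves Hist1h4h (log2 fold change 2.39), Hist1h4i (2.07) and Hist2h4 (1.4). Without the 2 libraries richest in muscle transcripts, 11 of the 23 cluster genes were higher and 1 lower, and of the variants H1fx was higher and H1f0 lower, at 1620 genes higher and 1946 lower of all genes tested, against 2940 and 3198 with them. Scaled by library totals alone, 18 cluster genes were higher and 0 lower and 7 variants higher and 1 lower, at 4737 genes higher and 1267 lower.

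In the cold the same 13 cluster genes gave 9 higher and 0 lower, with a median log2 fold change of 1.13, where 25.9% of all genes were called higher and 27.8% lower. With the 10 low cluster genes included, 18 of 23 were higher and 0 lower by edgeR, with 0 lower also at an unadjusted p below 0.05, by limma voom and by DESeq2. The variants gave 6 higher and 1 lower, with a median of 0.41. Pools did not overlap, with KO higher, in 9 of the 13 cluster genes and 7 of the 10 variants, against 30.6% of all genes, and with KO lower in 0 and 1, against 32.1%. Hist1h4h, Hist1h4i and Hist2h4 were higher again, by 2.20, 2.69 and 1.51 on the log2 scale, and the 5 H4 genes that met the rule through the KO libraries were also called higher, which adds no support. Scaled by library totals alone, 20 cluster genes and 9 variants were higher and none of either was lower, at 7876 genes higher and 1074 lower of all, against 3939 and 4222. Both genotype comparisons use different pools, so neither shares controls with the other. They do share the choice of genes and the estimate of the spread, which were both made over all 12 libraries.

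**Figure D2:**
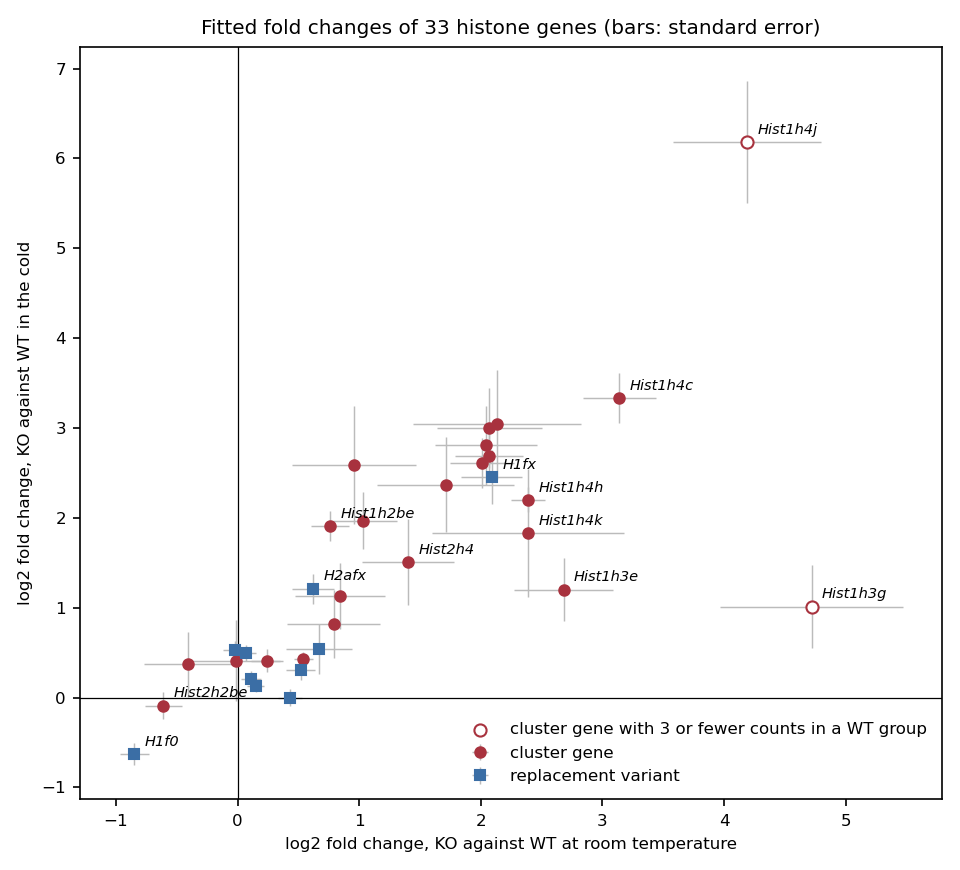
Fitted log2 fold change of KO against WT at RT (horizontal axis) and in the cold (vertical axis) for the 33 histone genes, with standard errors. Most cluster genes lie in the upper right, with Hist1h4c at 3.14 and 3.33 and Hist1h4h at 2.39 and 2.20, H1f0 lies at the lower left (-0.85 and -0.63), and open circles mark Hist1h4j and Hist1h3g, whose WT counts are too few for the fitted value to be read as a size.

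Among the H4 genes, Hist1h4h (chr13:23531050-23531519) was the most abundant. Its level came to 2.76, 2.84 and 2.69 CPM in the WT pools at RT, 13.3, 16.6 and 13.5 in the KO pools at RT, 3.37, 3.54 and 3.61 in the WT pools in the cold and 14.9, 14.5 and 19.2 in the KO pools in the cold. The KO and WT pools were far apart at both temperatures. The fold change was 5.23 at RT (log2 2.39 ± 0.14 SE, edgeR adjusted p = 5.8e-09) and 4.61 in the cold (2.20 ± 0.14, 6.1e-09). Only 54.2% of the 50-base stretches of this gene are unique to it, so part of its reads may have been left uncounted.

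Hist1h4c (chr13:23697635-23698454), of which 80.4% is unique, had 0.0766, 0.227 and 0.218 CPM in WT and 1.61, 1.91 and 1.37 in KO at RT. In the cold it had 0.3, 0.227 and 0.335 CPM in WT and 3.18, 2.93 and 2.71 in KO. It rose 8.8-fold at RT (log2 3.14 ± 0.30, edgeR adjusted p = 1e-06) and 10-fold in the cold (3.33 ± 0.28, 1.5e-07). Its WT level rests on 2 to 9 counts per library, so the size of the fold is uncertain. The gene met the rule only through the KO libraries, which favoured a higher level in KO.

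Hist1h4i and Hist1h4d moved by similar amounts. Of the genes in this paragraph, Hist1h4i and Hist2h4 met the count minimum in WT, and the others only through the KO libraries. Hist1h4i had 0.537, 0.455 and 0.49 CPM in WT and 2.54, 1.72 and 1.96 in KO at RT, and 0.262, 0.635 and 0.372 in WT and 2.43, 3.25 and 2.37 in KO in the cold. Its log2 fold changes were 2.07 ± 0.28 (edgeR adjusted p = 2.4e-05) and 2.69 ± 0.29 (1.6e-06), and those of Hist1h4d were 2.04 ± 0.42 (0.0011) and 2.81 ± 0.44 (6.2e-05). In Hist1h4j the WT pools were near the floor. It had 0, 2 and 1 counts in the WT and 26, 21 and 15 in the KO pools at RT, and 0, 1 and 0 against 66, 46 and 26 in the cold. The ratio of the summed, scaled counts was 20.5 at RT (95% exact counting interval 6.7 to 102) and 95.8 in the cold (16.9 to 3810), intervals that cover counting error only. Hist1h4a and Hist1h4k, each with no more than 5 counts in any WT pool, were also called higher at both temperatures, as was Hist2h4 from the cluster on chromosome 3. At RT these 3 calls each ended when 1 library was left out: WT replicate 2 or KO replicate 4 for Hist1h4k, those or KO replicate 5 for Hist1h4a, and KO replicate 6 for Hist2h4 (edgeR adjusted p up to 0.093, 0.081 and 0.2 over the alternatives). In the cold, the call of Hist1h4k ended without WT or KO replicate 1 or 2 and that of Hist2h4 without WT replicate 3 or KO replicate 2 (adjusted p up to 0.16 and 0.062).

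Promoters of 4 H4 genes are shown because Hist1h4h, Hist1h4i and Hist2h4, the H4 genes that met the count minimum in WT, were called higher in both comparisons. Hist1h4h is one of them, and Hist1h4c, Hist1h4j and Hist1h4a met the minimum only through the KO libraries. Sequences are those of RefSeq (GRCm38.p6), 250 bases before to 50 after the start, 5′ to 3′ on the strand of the gene, and 19 of 23 cluster and 9 of 10 variant genes could be matched. Capitals mark CCAAT (the box bound by NF-Y), TATAAA, ATTTGCAT (the octamer bound by Pou2f1), TTTCCCGC (a site of E2F type) and TGACGTCA (the cAMP response element), each searched on both strands; none of these motifs contains another. Hist1h4h is at chr13:23530794-23531093 (plus strand), Hist1h4c at chr13:23698409-23698708 (minus), Hist1h4j at chr13:21734784-21735083 (plus) and Hist1h4a at chr13:23761200-23761499 (minus).
Hist1h4h: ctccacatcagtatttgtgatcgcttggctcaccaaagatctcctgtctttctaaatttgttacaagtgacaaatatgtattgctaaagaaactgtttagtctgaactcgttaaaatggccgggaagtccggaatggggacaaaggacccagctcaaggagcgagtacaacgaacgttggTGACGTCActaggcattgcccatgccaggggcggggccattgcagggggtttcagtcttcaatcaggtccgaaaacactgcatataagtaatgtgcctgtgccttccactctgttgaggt
Hist1h4c: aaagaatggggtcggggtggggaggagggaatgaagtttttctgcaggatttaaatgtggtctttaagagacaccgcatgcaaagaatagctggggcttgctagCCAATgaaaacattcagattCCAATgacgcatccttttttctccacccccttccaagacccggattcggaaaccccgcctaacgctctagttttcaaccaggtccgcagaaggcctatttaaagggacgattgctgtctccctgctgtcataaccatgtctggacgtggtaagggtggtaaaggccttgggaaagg
Hist1h4j: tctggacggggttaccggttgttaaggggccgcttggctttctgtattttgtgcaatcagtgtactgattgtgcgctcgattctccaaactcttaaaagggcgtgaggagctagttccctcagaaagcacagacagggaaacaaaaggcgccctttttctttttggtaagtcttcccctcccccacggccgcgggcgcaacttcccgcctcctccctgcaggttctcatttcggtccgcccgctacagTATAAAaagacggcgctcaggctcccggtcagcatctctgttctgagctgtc
Hist1h4a: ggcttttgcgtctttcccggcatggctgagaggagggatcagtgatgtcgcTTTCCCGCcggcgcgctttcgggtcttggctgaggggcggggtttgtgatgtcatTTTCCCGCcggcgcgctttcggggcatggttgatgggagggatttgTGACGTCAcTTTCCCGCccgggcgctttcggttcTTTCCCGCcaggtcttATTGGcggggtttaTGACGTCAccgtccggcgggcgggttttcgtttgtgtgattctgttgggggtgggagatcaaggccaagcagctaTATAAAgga
CCAAT stood in 15 of the 19 cluster promoters and 6 of the 9 variant promoters, against 37.9% of the 27025 RefSeq promoters of the same length, but in only 3 of the 7 H4 promoters. TATAAA stood in 10 of 19 cluster promoters, 5 of them among the 7 H4 promoters, and in 1 of 9 variant promoters, against 14.2%. The octamer was in 2 of 19 cluster promoters (10.5%), TGACGTCA in 2 (Hist1h4a and Hist1h4h) and TTTCCCGC in 1 (Hist1h4a), against 1.75%, 1.88% and 1.11% of all promoters. A match describes letters in this window and is not a measured site.

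Of the H1 genes of the cluster, Hist1h1d changed most. It had 0.537, 0.825 and 0.762 CPM in WT and 2.71, 3.37 and 2.61 in KO at RT, and 0.487, 0.408 and 0.782 in WT and 3.66, 4.2 and 2.5 in KO in the cold. These groups did not overlap, and the log2 fold change was 2.01 ± 0.26 (edgeR adjusted p = 1.9e-05) and 2.61 ± 0.28 (1.3e-06). Hist1h1c, next to Hist1h2bc in CPM per kb among the cluster genes, had a smaller fold change. Its level was 42.8, 54.9 and 55.8 CPM in WT and 62.2, 61.9 and 57.2 in KO at RT (0.24 ± 0.13, edgeR adjusted p = 0.15) and 50.5, 39.2 and 54.9 against 64.9, 71.5 and 55.4 CPM in the cold (0.41 ± 0.13, 0.015). The call in the cold ended without WT replicate 2 or KO replicate 2 (adjusted p up to 0.074 over the alternatives). Hist1h1e rose by 1.03 ± 0.28 (edgeR adjusted p = 0.0082) and 1.97 ± 0.32 (8.9e-05) on the log2 scale, the former not without WT replicate 2 (adjusted p up to 0.078).

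The linker variants went in opposite directions. H1f0 had 72.7, 75.5 and 68.7 CPM in WT and 44.6, 34.2 and 41.2 in KO at RT, and 37.2, 44.4 and 53.5 CPM in WT and 29.5, 30.1 and 27.8 in KO in the cold. KO pools lay below the WT pools at each temperature, with log2 fold changes of -0.85 ± 0.12 (edgeR adjusted p = 3.1e-05) and -0.63 ± 0.12 (0.00029). Scaled by library totals alone, which raised the median of all genes by 0.22 at RT and 0.45 in the cold, the log2 fold change of H1f0 was -0.64 and -0.19, and the call in the cold was lost (adjusted p = 0.22). H1fx, the gene of H1.10, had 0.46, 0.512 and 0.381 CPM in WT and 2.11, 1.78 and 1.89 in KO at RT, and 0.262, 0.272 and 0.186 in WT and 1.06, 1.27 and 1.63 in KO in the cold. It rose by 2.09 ± 0.25 (edgeR adjusted p = 9e-06) and 2.45 ± 0.30 (4.7e-06) on the log2 scale, the largest change of a variant in either comparison, and its call held under every alternative tried. It overlaps another gene on its own strand and one on the opposite strand, which leaves its counts uncertain.

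**Figure D3:**
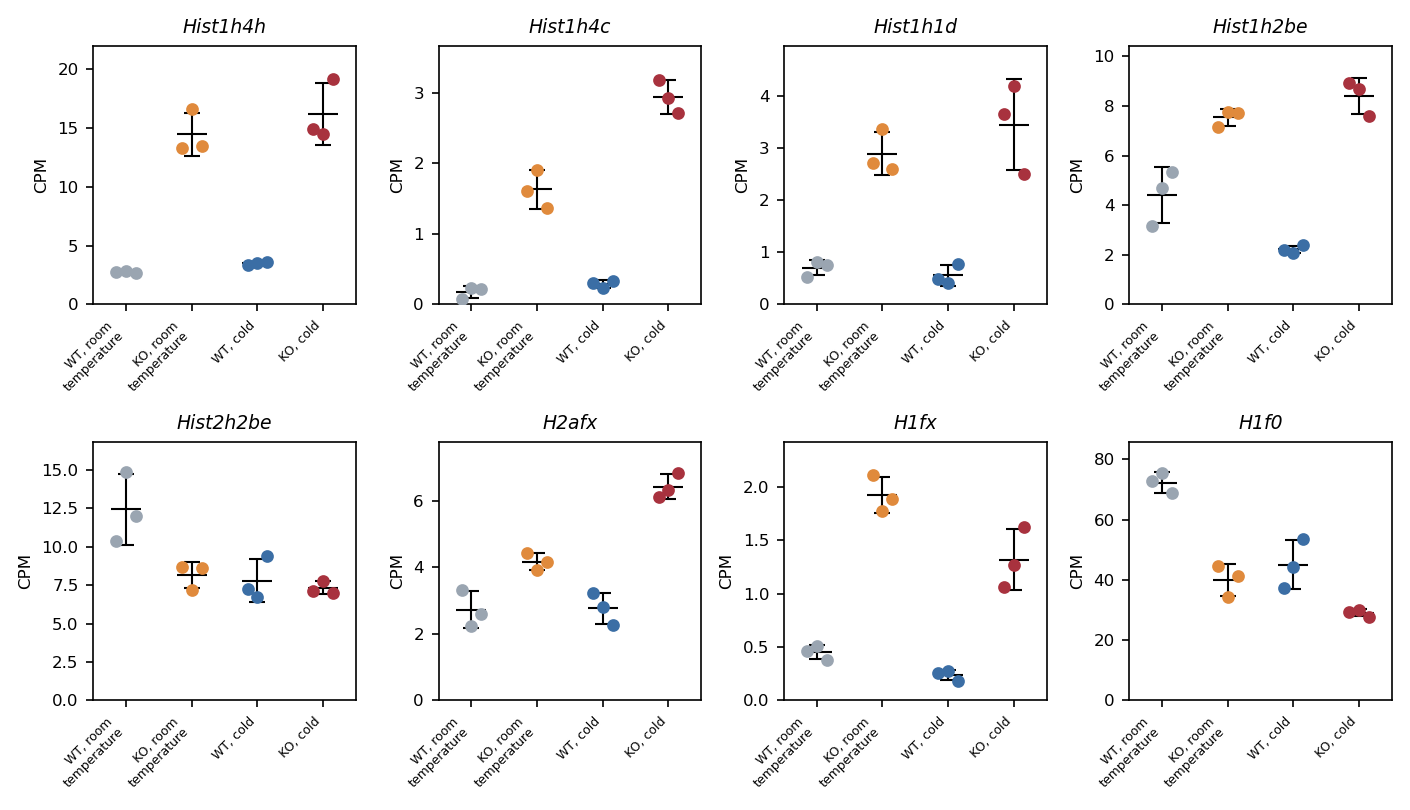
CPM of 8 histone genes in each pool (points), with group mean and 1 SD (n = 3), for WT and KO at RT and in the cold. Hist1h4h, Hist1h4c, Hist1h1d and H1fx are higher in every KO pool than in every WT pool, H1f0 is lower in KO at each temperature, and Hist2h2be is highest in the WT pools at RT.

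The H2B genes split. Hist1h2bc, the cluster gene with the highest level per kb, had 38.8, 33.9 and 34.4 CPM in WT and 55.6, 49.5 and 50.2 in KO at RT and 33.6, 33.1 and 37.4 against 44.7, 48.8 and 46.7 CPM in the cold. It rose by 0.54 ± 0.08 (edgeR adjusted p = 0.00011) and 0.43 ± 0.08 (0.00044) on the log2 scale. Hist1h2be differed more between the temperatures. It had 3.18, 4.69 and 5.36 CPM in WT and 7.14, 7.78 and 7.72 in KO at RT, and 2.21, 2.09 and 2.38 in WT and 8.95, 8.7 and 7.58 in KO in the cold. The WT pools in the cold were the lowest of all, and the log2 fold change of KO against WT was 0.76 ± 0.16 at RT (edgeR adjusted p = 0.0012) and 1.91 ± 0.17 in the cold (2.4e-07). Hist2h2be, from the cluster on chromosome 3, went the other way: it had 10.4, 14.9 and 12 CPM in WT and 8.67, 7.21 and 8.6 in KO at RT. It was the cluster gene that fell there, by 0.61 ± 0.15 on the log2 scale (edgeR adjusted p = 0.0034), and by library totals alone this call was lost (-0.41, 0.076). In the cold its values overlapped, at 7.23, 6.76 and 9.42 against 7.15, 7.81 and 7.02 CPM. No stem-loop of the pattern above was found in its annotated transcript or in that of Hist1h2bc.

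Both H2A cluster genes, Hist1h2ac and Hist1h2af, met the count minimum only through the KO libraries, so their calls as higher in KO at both temperatures are a description. Hist1h2ac had 0.0766, 0.142 and 0.49 CPM in WT and 1.37, 1.11 and 0.684 in KO at RT, and 0.15, 0.227 and 0.223 against 1.69, 1.73 and 1.42 CPM in the cold. Its log2 fold changes were 2.07 ± 0.43 (edgeR adjusted p = 0.0012) and 3.0 ± 0.45 (4.3e-05). Hist1h2af, with 6% unique sequence and 1 to 3 counts in each WT pool, is not read further, and its call at RT was lost under 7 of 12 alternatives (edgeR adjusted p up to 0.19).

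Of the H2A variants that passed the test, H2afx had the largest fold change at both temperatures. Its protein, H2A.X, is the variant that is phosphorylated around DNA breaks, and its gene is known to make both a stem-loop and a polyadenylated transcript. The level was 3.33, 2.25 and 2.61 CPM in WT and 4.43, 3.91 and 4.17 in KO at RT, and 3.22, 2.81 and 2.27 in WT and 6.12, 6.32 and 6.84 in KO in the cold. The KO pools were above the WT pools both times, by 0.62 ± 0.17 (edgeR adjusted p = 0.0081) and 1.21 ± 0.17 (2e-05) on the log2 scale. At RT the call ended without WT replicate 2, alone or with the other muscle-rich library (adjusted p up to 0.095 over the alternatives).

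The H2A.Z genes, whose protein marks promoters, moved in the cold comparison. H2afz had 18.9, 20.4 and 20.6 CPM in WT and 22.1, 20.5 and 20.4 in KO at RT, with overlapping groups (log2 0.07 ± 0.08, edgeR adjusted p = 0.51). In the cold it had 16.9, 14.5 and 16.3 CPM in WT and 22.8, 22.2 and 22.5 in KO, a rise of 0.50 ± 0.09 (edgeR adjusted p = 0.00014). H2afv, the gene of H2A.Z.2, had 14.3, 14.5 and 14.4 CPM in WT and 14.6, 13.1 and 14.9 in KO at RT (-0.02 ± 0.10, edgeR adjusted p = 0.89) and 8.35, 9.57 and 8.56 against 12.8, 11.5 and 13.8 CPM in the cold, a rise of 0.53 ± 0.10 (0.00041). In both genes the WT pools in the cold were the low ones.

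The macroH2A genes did not pass the test in any comparison by edgeR on all 12 libraries with the TMM scaling. H2afy, the main one here, ranged from 43.3 to 46.6 CPM over the 6 WT pools and from 46.8 to 52.3 CPM over the 6 KO pools, without overlap. The log2 difference between genotypes was 0.15 ± 0.07 at RT and 0.13 ± 0.07 in the cold (edgeR adjusted p = 0.12 and 0.16), and by library totals alone both passed. H2afy2 stood at 0.626 to 1.63 CPM, with log2 differences of 0.67 ± 0.27 and 0.54 ± 0.28 (edgeR adjusted p = 0.058 and 0.12); the former passed the test under some alternatives, limma voom among them. H2afj, the gene of H2A.J, rose by 0.52 ± 0.12 at RT (edgeR adjusted p = 0.0031) and by 0.31 ± 0.12 in the cold (0.039). The former call was lost without the 2 muscle-rich libraries together (adjusted p up to 0.062), and the latter without any 1 of the 3 WT cold pools or KO cold replicate 3 (adjusted p up to 0.27).

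Of the cluster genes for H3, the proteins H3.1 and H3.2, Hist1h3e and Hist1h3g were called at RT. Both met the count minimum only through the KO libraries, so their calls as higher in KO are a description. Hist1h3e had 2, 4 and 6 counts in WT and 19, 26 and 33 in KO at RT, and 9, 6 and 14 against 37, 33 and 26 in the cold, with log2 fold changes of 2.68 ± 0.41 (edgeR adjusted p = 7.9e-05) and 1.20 ± 0.35 (0.0082). Hist1h3g had 0, 0 and 1 counts in WT and 9, 15 and 12 in KO at RT, a ratio of 35.7 with a 95% exact counting interval of 6.02 to 1451. In the cold it had 8, 4 and 3 counts in WT and 17, 13 and 14 in KO (log2 1.01 ± 0.46, edgeR adjusted p = 0.073). Hist1h3d was called higher in the cold (1.13 ± 0.37, edgeR adjusted p = 0.015), not without WT or KO replicate 2, and Hist1h3f and Hist2h3c2 at neither temperature.

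H3.3, the replacement H3 that is laid down outside S phase, comes from H3f3a and H3f3b, which stood at 14.2 and 35.4 CPM per kb over the 12 libraries. H3f3b had 93.4, 70.1 and 72.4 CPM in WT and 107, 102 and 109 in KO at RT, and rose there by 0.43 ± 0.10 (edgeR adjusted p = 0.0037), a call lost without the 2 muscle-rich libraries (adjusted p up to 0.078). In the cold the WT pools stood at 109, 125 and 121 and the KO pools at 110, 115 and 130 CPM, with a difference of 0.00 ± 0.10 (0.98). H3f3a ranged from 47.4 to 57 CPM in the 6 pools at RT (0.11 ± 0.08, edgeR adjusted p = 0.29), and in the cold had 46.6, 42.6 and 39.3 CPM in WT and 50.9, 46.6 and 51.1 in KO. That last difference of 0.21 ± 0.08 passed the test (edgeR adjusted p = 0.043) although the groups met at 46.6 CPM. It was lost without WT replicate 2 or 3 or KO replicate 1 or 3 (adjusted p up to 0.17).

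**Figure D4:**
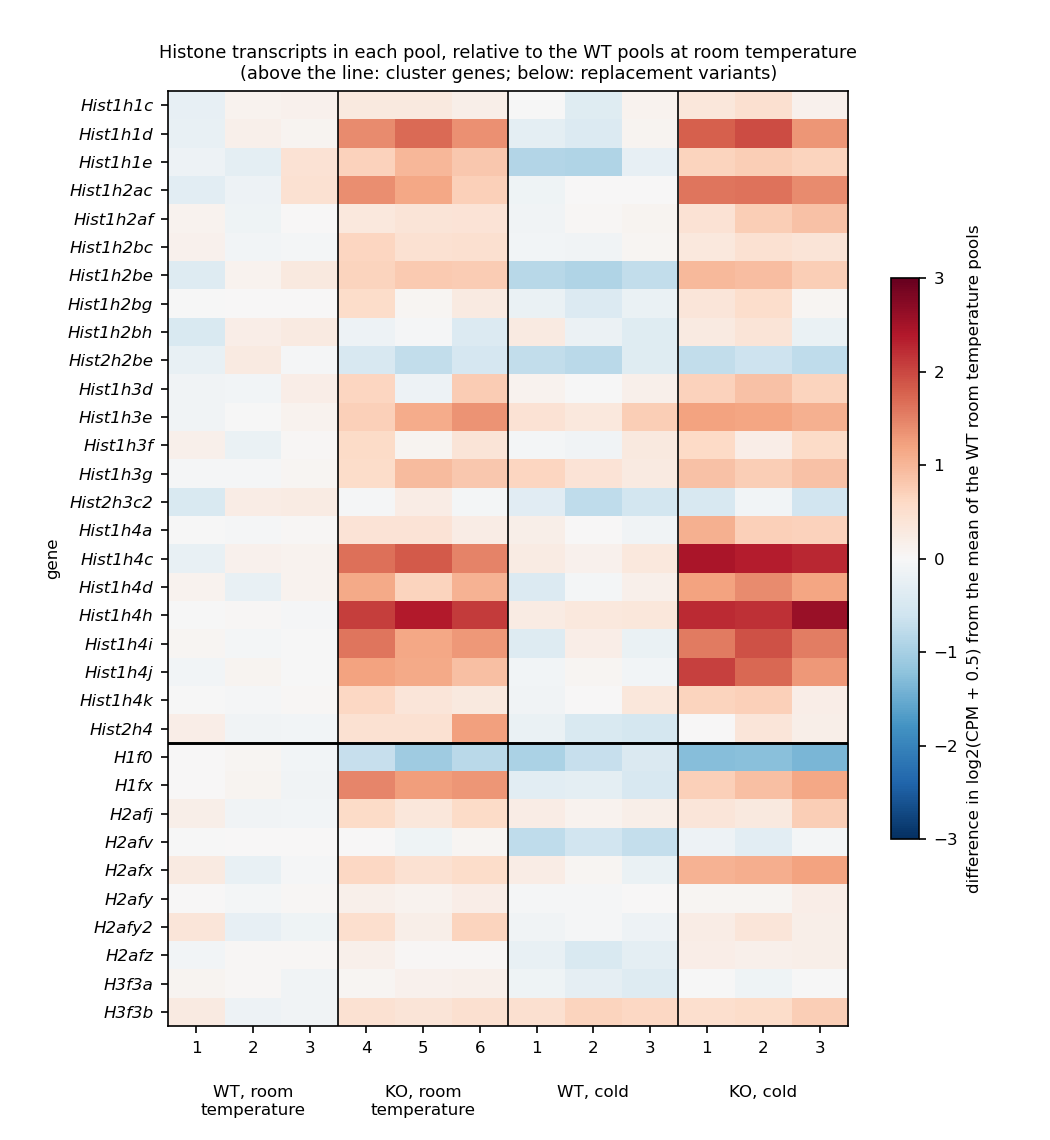
Level of each of the 33 histone genes in each of the 12 pools, as the difference in log2(CPM + 0.5) from the mean of the WT pools at RT; columns are pools with their replicate number, rows are genes, red is higher and blue lower. The H4 rows and Hist1h1d are red in all 6 KO pools apart from Hist2h4 in the cold and paler cells in the rows with few counts, and H1f0 and Hist2h2be are blue in the 9 pools other than the WT pools at RT.

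In WT, 3 of the 33 histone genes were called higher and 9 lower in the cold. Among the 13 cluster genes that met the minimum in WT, 0 were higher and 4 lower in the cold by edgeR, and 1 was higher at an unadjusted p below 0.05, where 23% of all genes were called higher and 23.2% lower; the 4 were Hist1h1e, Hist1h2be, Hist2h2be and Hist2h3c2. Of the 10 other cluster genes Hist1h3e and Hist1h3g were called higher, at 29 against 12 and 15 against 1 counts summed over the 3 pools. Of the 10 variants 1 was higher, H3f3b, and 5 were lower. The cold pools were apart from the others, and higher, in 1 of the 13 cluster genes and 1 variant (27.5% of all genes), and lower in 3 and 5 (27.9%). The comparison shares its pools with both genotype comparisons. Of the H4 genes 0 of 8 were called by edgeR, and at an unadjusted p below 0.05 there was 1 higher and 1 lower; their summed level was 4.14 CPM at RT and 4.7 CPM in the cold.

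The clearest falls in WT were those of H2afv, by 0.71 ± 0.10 on the log2 scale (edgeR adjusted p = 2.8e-05), H1f0, by 0.68 ± 0.12 (0.00015), Hist1h2be, by 0.99 ± 0.17 (0.00019), Hist2h2be, by 0.67 ± 0.15 (0.0014), and H2afz, by 0.33 ± 0.09 (0.005). In each of these 5 genes the 3 cold pools lay below the 3 pools at RT. H3f3b rose by 0.59 ± 0.10 (0.00021), again without overlap. Other calls ended when 1 library was left out: that of Hist1h1e without RT replicate 3 or cold replicate 1 or 2, of Hist1h3e without cold replicate 3, of Hist2h3c2 without RT replicate 2 or 3 or cold replicate 2 or 3, of H3f3a without RT replicate 1 or 2 or cold replicate 2 or 3, and of H1fx without any WT library but RT replicate 3. Their edgeR adjusted p went up to 0.1, 0.051, 0.11, 0.095 and 0.16 over the alternatives. The call of H1fx was lost under 12 of 15 alternatives in all, with DESeq2, limma voom and the replicate block among them.

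In KO, 2 of the 33 histone genes were called higher and 1 lower in the cold, near the shares of all genes. Of the 23 cluster genes 1 was called higher and 0 lower by edgeR (3 and 1 at an unadjusted p below 0.05, and 1 and 0 by limma voom and by DESeq2), and of the 10 variants 1 higher and 1 lower, where 7.3% of all genes were called higher and 7.56% lower. Pools did not overlap, with the cold pools higher, in 6 cluster genes and 3 variants (15.3% of all genes), and lower in 3 and 3 (17.4%). Of the 13 cluster genes that met the minimum in WT, 0 were called, and the cold pools were apart and higher in 0 and lower in 3. All 6 cluster genes with higher cold pools, and the 1 called, met the minimum only through the KO libraries. There the rule could also favour the cold pools: Hist1h4a met the minimum in 3 KO libraries, with 19 summed counts at RT and 51 in the cold. Hist1h4c was the cluster gene (0.85 ± 0.22, edgeR adjusted p = 0.016), H2afx the variant that rose (0.62 ± 0.16, 0.016) and H1f0 the one that fell (-0.46 ± 0.12, 0.014). None of these 3 calls held under all alternatives. Hist1h4c was lost without KO RT replicate 6 or KO cold replicate 1 or 2 (adjusted p up to 0.079), H2afx without KO RT replicate 6 or KO cold replicate 2 or 3 (0.052), and H1f0 without KO RT replicate 4 or 6 (0.069).

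The difference between both cold responses was tested as the interaction of genotype and cold, in which a positive value means a more positive response in KO. It passed for 2 of 23 cluster and 3 of 10 variant genes, where 10.6% of all genes passed with a positive and 12.9% with a negative value, so the histone count is not above that of all genes. Hist1h2be had the value 1.15 ± 0.23 (edgeR adjusted p = 0.0022): it fell in the cold in WT and stood at 7.14 to 7.78 and 7.58 to 8.95 CPM in KO. H2afv (0.55 ± 0.14, edgeR adjusted p = 0.011) and H2afz (0.42 ± 0.12, 0.017) likewise fell in WT and did not pass the test in KO. H3f3b was opposite in sign (-0.43 ± 0.15, edgeR adjusted p = 0.044), having risen in WT, and Hist1h3g (-3.71 ± 0.97, 0.011) rests on 1 count in the WT pools at RT. The values of Hist1h2be and H2afv held under every alternative, and the other 3 did not.

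The other genes of the pathway were read from lists of cell cycle genes, of factors that transcribe histone genes or process histone transcripts, and of histone chaperones. Of 28 cell cycle and S phase genes tested, 11 were higher and 0 lower in KO at RT by edgeR (16 and 0 at an unadjusted p below 0.05), with a median log2 fold change of 0.45, against 19.3% and 21% of all genes. In the cold 17 were higher and 2 lower, with a median of 0.79 and a range of -2.88 to 2.52, against 25.9% and 27.8% of all genes. The summed level of the list was 79.1 to 99.4 CPM in the WT pools and 104 to 112 in the KO pools at RT. In the cold the sums overlapped, at 102 to 119 CPM in WT and 108 to 117 in KO. Ccnb2, a mitotic cyclin, rose by 1.47 ± 0.28 (edgeR adjusted p = 0.00052) and Mcm3, a subunit of the replicative helicase, by 0.82 ± 0.15 (0.00055) at RT. In the cold Top2a, the topoisomerase of dividing cells, rose by 2.23 ± 0.25 (edgeR adjusted p = 2.4e-06), Mki67, a marker of proliferation, by 1.48 ± 0.21 (2.1e-05) and Pcna, the sliding clamp of DNA polymerase, by 0.69 ± 0.09 (1.4e-05). The levels behind these values are low: Mki67 stood at 1.30 to 2.26 CPM in the WT pools at RT and 4.07 to 5.31 CPM in the KO pools in the cold. The 2 genes that were lower in the cold were Rrm1 and E2f2.

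Of 19 factors that transcribe histone genes or process their transcripts, 3 were higher and 3 lower in KO at RT, near the 19.3% and 21% of all genes, with a median of -0.03. In the cold 0 were higher and 8 lower by edgeR (1 and 8 at an unadjusted p below 0.05), against 25.9% and 27.8% of all genes, with a median of -0.04. Npat, the coactivator of histone genes, differed by -0.09 ± 0.12 and 0.03 ± 0.12 (edgeR adjusted p = 0.55 and 0.83). Slbp stood at 14.7 to 15 CPM in WT and 11.2 to 16.8 in KO at RT, and at 19.8 to 21.4 against 14.8 to 15.4 CPM in the cold, where KO differed from WT by -0.43 ± 0.12 on the log2 scale (edgeR adjusted p = 0.0048). Slbp also rose in the cold in WT (0.47 ± 0.12, edgeR adjusted p = 0.0032). The cleavage factors Cpsf2, Sympk, Cstf2 and Cstf2t were lower in KO in the cold, at -0.74 ± 0.08, -0.46 ± 0.08, -0.52 ± 0.08 and -0.47 ± 0.09.

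Of 25 histone chaperones and exchange factors, 1 was higher and 4 lower in KO at RT, against 19.3% and 21% of all genes, with a median of -0.04. In the cold 6 were higher and 8 lower, near the 25.9% and 27.8% of all genes, with a median of -0.06. Anp32e, the chaperone that removes H2A.Z from nucleosomes, fell at both temperatures, by 0.59 ± 0.10 (edgeR adjusted p = 0.0002) and 0.85 ± 0.10 (2.9e-06). Atrx, which loads H3.3 at heterochromatin with Daxx, fell at RT, by 0.41 ± 0.08 (edgeR adjusted p = 0.00093). In the cold Asf1b, an H3 and H4 chaperone of dividing cells, fell by 1.04 ± 0.19 (edgeR adjusted p = 0.00024), and Dek rose by 0.91 ± 0.14 (4.3e-05).

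Markers of other cell types moved with genotype, and in whole tissue more cells of a type and more transcript per cell cannot be told apart. Of 11 macrophage markers 10 were higher in KO at each temperature, against 19.3% and 25.9% of all genes, with summed levels of 75.4 to 101 and 114 to 120 CPM in the WT pools and 256 to 330 and 313 to 433 CPM in the KO pools at RT and in the cold. Of 7 T and B cell markers 2 and 4 were higher, with sums of 5.44 to 8.41 CPM in WT and 12.0 to 17.6 in KO. Of 6 endothelial markers 5 were higher at each temperature, and of 8 fibroblast and mural markers 6 and 5. Endothelial sums were 438 to 615 CPM in WT and 651 to 776 in KO, and fibroblast and mural sums 392 to 639 and 598 to 741 CPM. Of 8 brown adipocyte markers 5 and 4 were lower and 0 higher by edgeR, where 21% and 27.8% of all genes were called lower. Of 10 skeletal muscle markers 0 were called in any comparison. At an unadjusted p below 0.05 these counts of 0 were 0 as well. At least 1 library had 1 marker at 0 in the T and B cell list and in the skeletal muscle list, and none did in the others. The part of these cell types in the histone levels was not tested.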

How the data were processed

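Poly(A) selection, kit, read length and batches are not given in the sources used here. The authors deposited raw counts of reads per gene, 1 file per pool; per the submitters' processing notes they used STAR, HTSeq and GRCm38, versions not given. The name of each file refers to a reverse strand setting, which no protocol states. Summary lines of the counter entered neither library sizes nor tests.

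From these counts, edgeR 4.0.16 in R 4.3.3 (limma 3.58.1) was run with filterByExpr, TMM factors (0.799 to 1.18), 1 mean per group over all 12 libraries and a robust quasi-likelihood fit; p-values were adjusted by Benjamini-Hochberg over 15208 genes, with 0.05 as the threshold, and all 33 histone genes were among them. The common biological coefficient of variation was 13.6%. Standard errors are the log2 fold change over the root of its F statistic, and fitted values used a prior count of 0.125. The procedure was first tested on simulated data. Names and positions came from GENCODE M21, which held 53274 of 53379 gene IDs. No 2 pools of a group agreed within sampling noise (chi-square per degree of freedom 11.1 to 91.3).

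Alternatives were median-ratio factors, library totals alone, no filter beyond 1 count, DESeq2 1.42.0, limma voom, the 6 compared libraries alone, without the 2 libraries richest in muscle transcripts, a replicate block and each library left out; subsets of the genes and the block's 9 libraries without the block were added after seeing the data. The genes, lists and tests were chosen with earlier results of these data known. Genes named with values were, at most, the 8 cluster and 5 variant genes with the smallest p per comparison, the most abundant of each type, the H1, H2A.X, H2A.Z, macroH2A and H3.3 genes and up to 4 genes per list with the smallest p; Hist1h2ac, Hist1h3d, Hist1h4a, Hist1h4k, Hist2h4, H2afj, Npat and Slbp were also described for their role or type.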

Additional observations from a re-analysis of the deposited data

Results flagged for a closer look

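The cold response differed between the genotypes, by the test of genotype and cold together, in 5 of 33 histone genes, where 10.6% of all genes passed with a positive and 12.9% with a negative value. On the log2 scale, with positive values for a more positive response in KO, the difference was 1.15 for Hist1h2be, 0.55 for H2afv, 0.42 for H2afz, -0.43 for H3f3b and -3.71 for Hist1h3g. Hist1h2be overlaps Hist1h1e on the same strand, and Hist1h3g had 1 count in all WT pools at room temperature together. Without the 2 libraries richest in muscle transcripts, the tests of H2afz, H3f3b and Hist1h3g no longer passed (edgeR adjusted p up to 0.094, 0.23 and 0.073 over the alternatives). That of H3f3b was lost under 11 of 18 alternatives, among them library totals alone, no filter and leaving out any 1 of 8 libraries.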

How the results depend on the processing

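No called value changed sign. Calls of KO against WT at room temperature held under every alternative in which the gene could be tested for 11 of 17 cluster and 2 of 5 variant genes, and in the cold for 14 of 18 and 4 of 7. The minimum was met in WT by Hist1h1d, Hist1h2bc, Hist1h2be, Hist1h4h and Hist1h4i among these cluster genes, and by Hist1h1e among those of the cold. The other kept cluster genes met it only through the KO libraries, so their calls add no support. Hist1h3g at room temperature and Hist1h2bg in the cold, counted among these, fell under the filter with the 6 libraries alone. Hist1h2bg did so also with the block and with its 9 libraries. With library totals alone the KO calls at room temperature were 18 cluster genes higher and 0 lower, 7 variants higher, and 4737 genes higher and 1267 lower of all genes; in the cold no variant was lower (0), and 7876 genes were higher and 1074 lower. The cold calls in WT were then 1826 higher and 4812 lower, those in KO 675 lower, and the interaction had 2 cluster genes positive, 0 variants negative and 711 genes negative of all. Summed cluster CPM by library totals was 177 (KO, room temperature), 85 (WT, cold) and 186 (KO, cold), and summed variant CPM 348, 246 and 349 (285 in WT at room temperature), so that the variant sums of KO and WT no longer overlapped. Without the 2 muscle-rich libraries KO at room temperature had 11 cluster genes and 1 variant higher, and 1620 genes higher and 1946 lower; cold in WT had 3 variants lower; cold in KO had 0 cluster genes higher, 0 variants lower, 586 genes higher and 628 lower; and the interaction had 0 cluster genes negative, 1 variant positive, 0 negative, and 840 and 1063 genes. With no filter, cold in KO had 2 cluster genes higher, and the interaction 2 positive and 0 variants negative; with the 6 libraries alone, cold in WT had 0 cluster genes higher and cold in KO 2; by DESeq2 the interaction had 0 cluster genes negative. Without Hist1h1c and H3f3b the log2 ratio of cluster to variant sums was -1.85, -1.06 and -1.73 (WT room temperature, KO room temperature, WT cold; -1.41, -0.97 and -1.54 with all).

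With each library left out, cold in WT had 1 to 2 cluster genes higher, 2 to 4 lower and 3 to 5 variants lower; cold in KO had 0 to 2 cluster genes higher, 0 to 1 lower, 0 to 1 variants higher, 0 to 1 lower, 601 to 1232 genes higher and 570 to 1305 lower; and the interaction had 1 to 3 cluster genes positive, 1 to 2 negative and 0 to 1 variants negative. The cause of these changes was not tested. Same-numbered pools did not deviate together in a consistent way across genes. Between both cold groups r was -0.217, -0.139 and -0.168, and between both WT groups 0.00353, -0.225 and 0.242. Between WT at room temperature and KO in the cold it was -0.27, 0.0316 and -0.319. These values, from 3 pools per group, cannot settle whether the numbers pair the pools. With a replicate block in 9 libraries, KO in the cold had 15 cluster genes higher, 6 variants higher and 1 lower. Cold in WT then had 2 and 3 cluster genes and 1 and 4 variants higher and lower. In cluster genes that met the count minimum only through the KO libraries, the size of a fold is uncertain and its direction was favoured by the rule.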

Other observations

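The 44 cluster genes under the count minimum were described after their counts were seen. Together they had 9, 31 and 21 counts in the WT and 62, 64 and 44 in the KO pools at room temperature, and 9, 10 and 15 against 97, 96 and 69 in the cold. Every KO pool held more than every WT pool, at libraries of similar total. The 5 variant genes under the minimum had no more than 1 count in any library.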
